A study of Bos taurus with 3 samples.

Results

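IGFBP2, IGFBP3, IGFBP4, IGFBP5, IGFBP6 and IGFBP7 were described in cultured bovine mesenchymal stromal cells, each identified by its symbol in the gene lists of the deposited matrices. They were 6 of 21861 listed genes, and each symbol matched 1 gene. Insulin-like growth factor (IGF) binding proteins are secreted proteins that bind the growth factors IGF1 and IGF2, lengthen their life in the circulation and set how much of them reaches the type 1 IGF receptor. IGFBP3 is the main carrier in serum, IGFBP4 is mostly known as an inhibitor of IGF action, IGFBP5 binds to extracellular matrix and is abundant in bone, and IGFBP6 prefers IGF2 to IGF1. IGFBP2 also contacts integrins, and IGFBP7, a related protein of low IGF affinity, is known from the vascular wall. Stromal cells of bone and fat are among the cells known to secrete these proteins.

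The cells were untreated, wild-type primary cultures all from 1 healthy Holstein-Frisian cow in its first lactation. Adipose tissue, marrow and peripheral blood were the sources, and the cells grew in DMEM of low glucose plus 30% FBS, antibiotics and glutamine until colonies were seen. One droplet library was made per tissue with the v3.1 kit of 10x Genomics, which reads RNA from its 3' end. No tissue had a replicate, so there is no test between tissues. Intervals below are exact 95% intervals from the counts and treat each UMI as independent. They cover counting error only, without the spread between cells, cultures or animals. Serum in the medium supplies IGFs and binding proteins of its own, which RNA counts do not measure.

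Barcodes with enough unique molecular identifiers (UMIs, 1 per captured RNA molecule) were kept as cells: 6088 of adipose tissue, 9281 of marrow and 3192 of blood, with a median of 14391, 9096 and 24884 UMIs. Between 4 and 10 cell barcodes were shared by a pair of libraries. The label of stromal cells was checked against 18 stromal markers, of which 15, 13 and 15 reached 50 CPM (UMIs of a gene per 1000000 UMIs of the kept cells) in the adipose tissue, marrow and blood cultures. Clusters with the stromal profile, called stromal-like, held 6049, 8303 and 3035 cells. The remaining cells were 39 endothelial-like cells in adipose tissue, 464 cells of a mixed stromal and macrophage profile plus 514 cells of an unnamed cluster in marrow, and 157 macrophage-like cells in blood. The unnamed cluster was led by FABP4, LYZ, S100A9, S100A12 and S100A8, with 15 of 16 macrophage markers at 50 CPM or more. Over all kept cells, the summed level of the 16 macrophage markers was 12.1 CPM in adipose tissue, 674 CPM in marrow and 176 CPM in blood. C1QB, C1QC, ITGAM and CD74 were at 0 in adipose tissue, and no macrophage marker was at 0 in the other libraries.

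IGFBP6 was the leading member in all 3 cultures. It reached 590 CPM (585 to 594) in adipose tissue, 194 CPM (191 to 197) in marrow and 1092 CPM (1086 to 1099) in blood, where it ranked 149 among all genes by UMIs. IGFBP6 held 71.8% of the members' UMIs in adipose tissue (interval 71.4 to 72.1), 51.6% in marrow (51.1 to 52.1) and 70.7% in blood (70.5 to 71.0). These counts come from the 3' end and are 1 per molecule, so levels of different members were compared as CPM with no scaling to transcript length. The 6 members together reached 821 CPM in adipose tissue, 376 CPM in marrow and 1545 CPM in blood.

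IGFBP4 was the second member in every library, with 140 CPM in adipose tissue, 85.6 CPM in marrow and 301 CPM in blood. IGFBP3 followed in adipose tissue (51.8 CPM) and marrow (55.8 CPM), where it made up 6.31% and 14.9% of the members' UMIs. In blood it had 4.79 CPM, or 0.310%, and was the lowest of the 6. IGFBP5 had 33.8 CPM in adipose tissue, 24.5 CPM in marrow and 127 CPM in blood, so it stood above IGFBP3 in blood and below it in the other cultures. IGFBP2 had 3.59 CPM in adipose tissue, 9.58 CPM in marrow and 9.07 CPM in blood. IGFBP7 had 2.47, 6.30 and 10.7 CPM in adipose tissue, marrow and blood. Neighbours in each order differed by more than counting error, and so did the 3 levels of each member except IGFBP2 in marrow and blood, whose ratio was 1.06 (0.960 to 1.16).

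**Figure D1:**
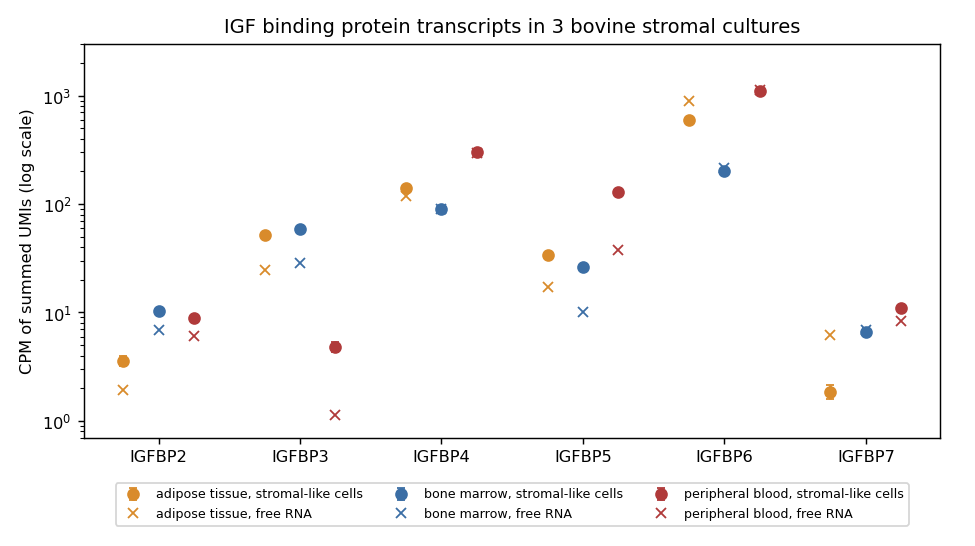
Level of each IGF binding protein (CPM of summed UMIs, log axis) in stromal-like cells (points; bars are exact 95% counting intervals, mostly smaller than the point) and in free RNA from barcodes of 10 to 100 UMIs (crosses) of the 3 cultures. IGFBP6 is highest in all 3 cultures, and IGFBP3 is near 5 CPM in blood against more than 50 CPM in the other 2.

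**Figure D2:**
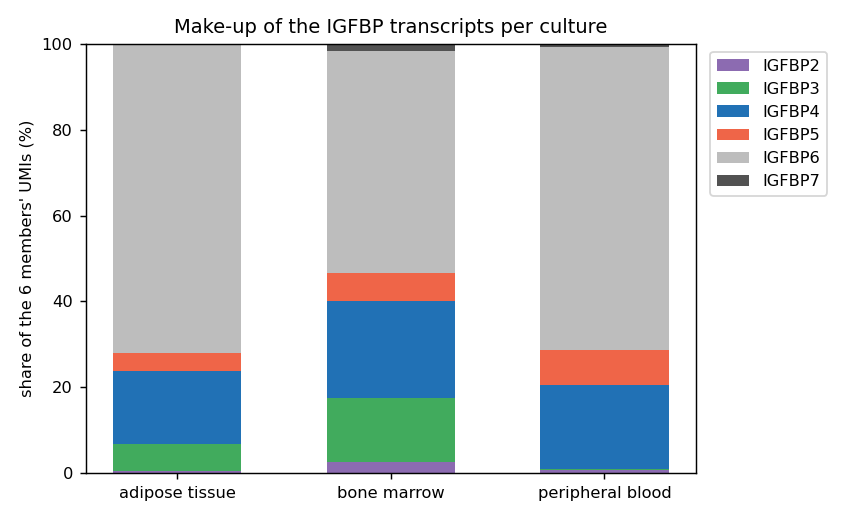
Share of the 6 members' UMIs (percent, stacked bars from 0 to 100) held by each member in all kept cells of a culture. The IGFBP6 part is 71.8% for adipose tissue, 51.6% for marrow and 70.7% for blood, and the IGFBP3 part is 14.9% in marrow against 0.310% in blood.

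Among members at 50 CPM or more, adipose tissue and bone marrow cultures were furthest apart in IGFBP6. Its 590 CPM in adipose tissue was 3.04-fold (2.99 to 3.09) the 194 CPM of marrow, and 2.90-fold in stromal-like cells alone. A gene was counted as higher or lower at a ratio of at least 2 with at least 50 CPM in the higher library, a threshold that leaves 3 of the 6 members to be read in this pair. IGFBP6 was 1 of 3 counted as higher in adipose tissue, against 2.55 percent of 3174 genes, and 0 of 3 were counted as lower, against 4.35 percent (6.9 percent in either direction, and 6.08 percent among stromal-like cells). IGFBP4 was 1.64-fold higher (1.59 to 1.68) and IGFBP3 was 0.928-fold the marrow level (0.893 to 0.965), both within the 2-fold limit. IGFBP5, IGFBP2 and IGFBP7 were under 50 CPM in both libraries, with ratios of 1.38, 0.374 and 0.392. An alternative chosen after seeing the data kept stromal-like cells with 0 UMIs of 36 cell cycle genes (each cell thinned to 3000 UMIs). It left 65 adipose and 203 marrow cells. IGFBP5 was then also counted as higher in adipose tissue (2 of 4 members, against 4.71 percent of 2887 genes). Its log2 ratio was 2.43, against 0.46 over all cells. Over all kept cells, the median log2 ratio of the 3 read members was 0.71, beside 0.10 for all genes.

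Against peripheral blood, the adipose tissue culture had more IGFBP3 and less of the other 5 members. IGFBP3 was 10.8-fold higher (9.80 to 11.97) at 51.8 CPM in adipose tissue, against 4.79 CPM in blood. IGFBP4 was 2.15-fold lower (2.10 to 2.19) and IGFBP5 was 3.74-fold lower (3.60 to 3.89) in adipose tissue. IGFBP6 was 1.85-fold lower (1.83 to 1.87), within the 2-fold limit. Of 4 members that could be read, 1 was thus counted as higher in adipose tissue (1.2 percent of 3161 genes) and 2 as lower (3.83 percent), with 5.03 percent of genes counted in either direction and 5.04 percent among stromal-like cells. IGFBP3 reached 50 CPM only in adipose tissue and IGFBP5 only in blood, so each passed the threshold only through its higher library. IGFBP2 and IGFBP7, under 50 CPM, had ratios of 0.395 and 0.231. Stromal-like cells with 0 cell cycle UMIs numbered 65 in adipose tissue and 122 in blood. Among them 0 of 4 members were counted as lower in adipose tissue (4.12 percent of 2888 genes). The log2 ratio of adipose tissue over blood was -0.94 for IGFBP4 and -0.58 for IGFBP5, against -1.10 and -1.90 over all cells. IGFBP4 thus crossed the 2-fold limit by a small change. Over all kept cells, the 4 read members, which leave out IGFBP2 and IGFBP7, had a median log2 ratio of -0.996, beside 0.13 for all genes.

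Bone marrow and blood cultures differed by more than 3-fold in IGFBP3, IGFBP4, IGFBP5 and IGFBP6. IGFBP3 was 11.7-fold higher (10.6 to 12.9) in marrow, at 55.8 CPM against 4.79 CPM in blood. IGFBP6 was 5.63-fold lower (5.54 to 5.72), IGFBP5 5.16-fold lower (4.94 to 5.39) and IGFBP4 3.52-fold lower (3.43 to 3.61) in marrow. The 4 members that could be read were all counted: 1 as higher (3.86 percent of 3131 genes) and 3 as lower (3.9 percent). In either direction, 7.76 percent of genes were counted, and 7.35 percent among stromal-like cells. IGFBP3 reached 50 CPM only in marrow and IGFBP5 only in blood, so each passed the threshold only through its higher library. IGFBP2 and IGFBP7, under 50 CPM in both libraries, were within 2-fold, with log2 ratios of marrow over blood of 0.08 and -0.76. The median log2 ratio of the 4 read members, which leaves out IGFBP2 and IGFBP7, was -2.09, beside 0.02 for all genes. These pairs share libraries, so they are not independent of each other. Restricting the sums to stromal-like cells kept every one of these calls, with IGFBP3 at 10.8-fold in adipose tissue over blood and 12.3-fold in marrow over blood, and IGFBP6 5.44-fold lower in marrow than in blood.

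Free RNA held the same members in nearly the same order. In barcodes of 10 to 100 UMIs, IGFBP6 had 902 CPM in adipose tissue, 213 CPM in marrow and 1128 CPM in blood. IGFBP4 had 118, 89.3 and 297 CPM in free RNA of adipose tissue, marrow and blood, close to its level in cells. IGFBP3 was lower in free RNA than in cells, at 24.8 CPM in adipose tissue, 28.5 CPM in marrow and 1.13 CPM (3 UMIs) in blood. IGFBP5 was also lower there, at 17.2, 10.0 and 37.6 CPM in adipose tissue, marrow and blood. Part of any cell's IGFBP6 UMIs can be free RNA, and that part was not tested.

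In marrow, the unnamed FABP4 and LYZ cluster had few UMIs of any member, and the origin of those UMIs was not tested. Its 514 cells had 10.995 CPM (38 UMIs) of the 6 members together, against 396 CPM in stromal-like cells. IGFBP6 had 6.66 CPM there against 204 CPM in stromal-like cells, and IGFBP5 and IGFBP2 had 0 UMIs. With each cell thinned to 3000 UMIs, 3.11% of the unnamed cells and 43.1% of stromal-like cells had an IGFBP6 UMI (median depth before thinning 5895 and 9108 UMIs). The mixed marrow cluster had 310 CPM of the 6 members, between the unnamed and the stromal-like level. In blood, the 157 macrophage-like cells had 1081 CPM of the members against 1568 CPM in stromal-like cells. That cluster also held 15 of 18 stromal markers at 50 CPM or more, and doublets were not removed, so its member UMIs cannot be assigned to macrophages.

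The 39 endothelial-like cells of adipose tissue stood apart by IGFBP7. It reached 133 CPM (58 UMIs) in them, against 1.86 CPM in the stromal-like cells, a ratio of 71.1 (51.9 to 96.2). These few cells, 0.641% of the culture, held 58 of its 234 IGFBP7 UMIs. IGFBP6 had 165 CPM in endothelial-like cells against 591 CPM in stromal-like cells, and IGFBP3 had 13.7 CPM against 52.0 CPM. IGFBP4 did not differ beyond counting error, with 151 CPM in endothelial-like and 140 CPM in stromal-like cells (ratio 1.08, 0.831 to 1.37). The counting intervals of IGFBP6 (129 to 207 CPM), IGFBP4 (117 to 192 CPM) and IGFBP7 (101 to 171 CPM) overlapped in these cells, while 12 of 18 stromal markers also reached 50 CPM in the cluster and adipose free RNA held 902 CPM of IGFBP6 and 118 CPM of IGFBP4. The part of these in the cluster's IGFBP6 and IGFBP4 UMIs was not tested. IGFBP2 had 0 UMIs there. Of 12 endothelial markers, 8 reached 50 CPM in this cluster, led by SELE at 1248 CPM, while CLDN5 and ESAM were at 0.

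Within the stromal-like cells, the clusters were formed with the 6 members left out of the genes used, so that a member's level did not place a cell. In adipose tissue the 4 higher members varied by less than 1.5-fold between the 4 clusters of at least 50 cells. IGFBP6 ranged from 542 to 693 CPM, IGFBP4 from 123 to 162 CPM, IGFBP3 from 40.6 to 59.5 CPM and IGFBP5 from 28.2 to 40.6 CPM. The 2 low members varied more, IGFBP7 from 0.621 to 3.67 CPM (5.91-fold) and IGFBP2 from 2.39 to 4.98 CPM (2.08-fold). All 6 members were highest in cluster 3, led by ASPN, CCN2 and ACTA2, which had the fewest cell cycle UMIs of the 4 clusters (a median of 7 per cell at 3000 UMIs, against 15 to 21). Clusters 0, 1 and 2 were led by histone and mitotic genes.

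In bone marrow, IGFBP5 and IGFBP7 were highest in the same cluster. Cluster 0, led by INHBA, F3, UNC13D, TINAGL1 and LIPG, had 120 CPM of IGFBP5 (112 to 129), against 12.6 to 23.0 CPM in the other 5 stromal-like clusters. With 7.35% of the cells it held 34.0% of the IGFBP5 UMIs and 34.2% of the IGFBP7 UMIs. IGFBP7 had 31.1 CPM there and 1.55 to 8.79 CPM in the others. IGFBP2 was also highest in this cluster, at 22.2 CPM. IGFBP3 and IGFBP4 peaked elsewhere, in cluster 3, which was led by CLU, SERPINF1 and FGF1. IGFBP3 had 103 CPM there, against 34.0 CPM in cluster 6 (OMD, EDNRA and BMP2), and IGFBP4 had 158 CPM, against 72.3 to 101 CPM in the other 5. IGFBP6 varied least, from 148 to 261 CPM.

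In this clustering the blood culture had the widest cluster differences. Marrow nearly matched it for IGFBP7 (20.3-fold in blood and 20.1-fold in marrow, with 19 and 8 UMIs in the lowest clusters). Cluster 4, led by MEOX1 and ALDH1A1, had 369 CPM of IGFBP5 (358 to 380), the highest of any cluster in the 3 libraries, and held 38.4% of the library's IGFBP5 UMIs with 15.5% of its cells. The same cluster had 75.9 CPM of IGFBP4, the lowest in blood. IGFBP4 was highest in cluster 2 (SST, ASPN and SFRP4) at 494 CPM. In the other 5 stromal-like clusters IGFBP4 and IGFBP5 followed one order, from cluster 0 (172 CPM of IGFBP4 and 24.5 CPM of IGFBP5) to cluster 2 (494 and 141 CPM). Cluster 0, led by ANKRD1, FST and BASP1, was also lowest in IGFBP6, at 635 CPM against 1052 to 1431 CPM in the others. This cluster held 52.7% of the library's few IGFBP3 UMIs with 16.8% of the cells. Its IGFBP3 level was 14.3 CPM, against 0.908 to 3.95 CPM in the other 5 and at least 34.0 CPM in every stromal-like marrow cluster. IGFBP7 was highest in cluster 5 (LRRN4CL and TIMP3) at 32.9 CPM, and lowest in the IGFBP5-rich cluster 4 at 1.62 CPM, unlike marrow, where cluster 0 was highest in both.

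**Figure D3:**
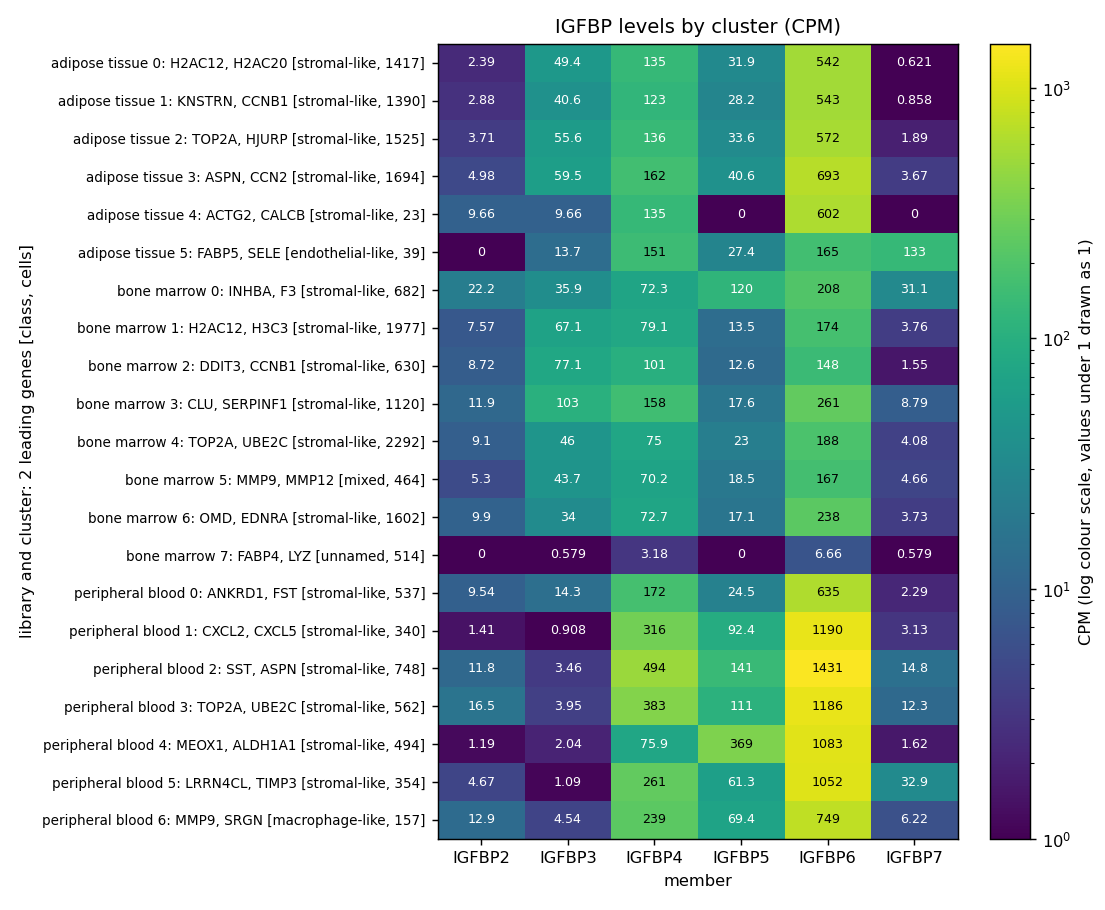
CPM of each member (columns, log colour scale, value printed) in each cluster (rows, with its 2 leading genes, class and number of cells) of the 3 cultures. IGFBP6 has the highest value in every cluster, IGFBP5 stands out in marrow cluster 0 and blood cluster 4, and IGFBP7 stands out in the adipose endothelial-like cluster 5.

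**Figure D4:**
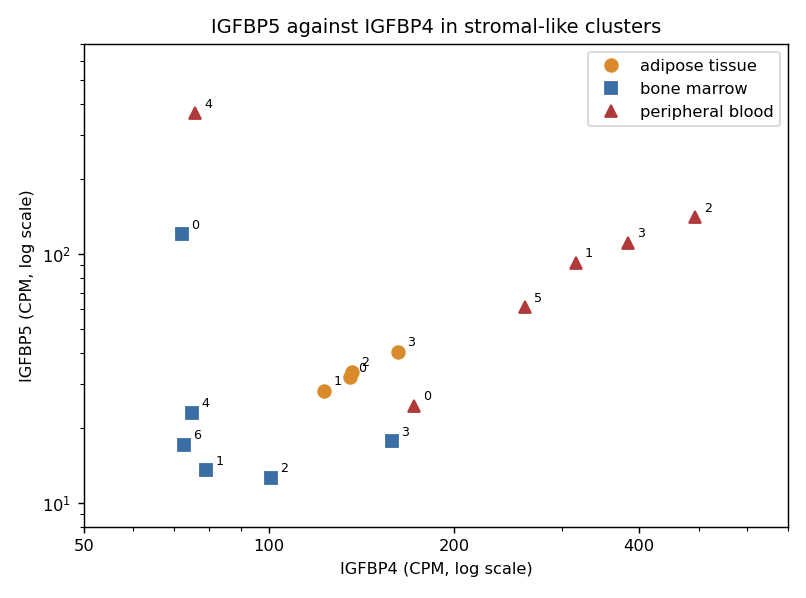
IGFBP5 (CPM, log axis) against IGFBP4 (CPM, log axis) in each stromal-like cluster of at least 50 cells, numbered within its culture. Blood cluster 4 (75.9 CPM of IGFBP4, 369 CPM of IGFBP5) and marrow cluster 0 (72.3 and 120 CPM) lie above the other clusters of their culture.

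Cells with low cell cycle counts had a higher summed level of the 6 members in every culture, though not of each member. Low-cycling cells, with 0 UMIs of 36 S-phase and mitotic genes at 3000 UMIs, numbered 65 in adipose tissue, 203 in marrow and 122 in blood among stromal-like cells. The intervals leave out the spread between these few cells. Their summed member level was 1192 CPM in adipose tissue, against 780 CPM in stromal-like cells with at least 10 such UMIs, a ratio of 1.53 (1.45 to 1.61). In marrow it was 597 CPM against 354 CPM, a ratio of 1.69 (1.60 to 1.78), and in blood 2141 CPM against 1425 CPM, a ratio of 1.503 (1.47 to 1.54). IGFBP4 was higher in the low-cycling cells of each culture, by 1.80-fold in adipose tissue, 2.35-fold in marrow and 1.78-fold in blood, and IGFBP6 by 1.35-fold, 1.61-fold and 1.42-fold. IGFBP7 was 9.27-fold higher in low-cycling adipose cells (15 UMIs in them), 2.04-fold in marrow and 4.49-fold in blood. IGFBP5 was 3.51-fold higher (2.97 to 4.13) in low-cycling adipose cells and 1.41-fold higher in blood, but in marrow its ratio was 0.773 (0.569 to 1.03), which counting error does not separate from equal levels. IGFBP3 was 1.57-fold higher in low-cycling marrow cells, and its interval included equal levels in adipose tissue (1.25, 0.999 to 1.55) and blood (1.09, 0.551 to 1.94). IGFBP2 was 2.95-fold higher (1.55 to 5.14) in low-cycling adipose cells and 1.84-fold higher in blood, with a ratio of 0.949 (0.583 to 1.46) in marrow.

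Per cell, shares of cells with a UMI were compared at 3000 UMIs each, because depth differed between libraries. IGFBP6 was found in 77.2% of adipose cells, 40.8% of marrow cells and 90.3% of blood cells, and without thinning in 98.5%, 73.9% and 98.2%. IGFBP4 was found in 30.2%, 19.6% and 50.1% of adipose, marrow and blood cells at 3000 UMIs, and IGFBP5 in 7.31%, 5.28% and 21.6%. IGFBP3 was found in 9.71% of adipose cells, 10.6% of marrow cells and 1.16% of blood cells. IGFBP2 and IGFBP7 were each found in under 3% of the cells of any culture. Without thinning, IGFBP3 was found in 27.1% of adipose cells and 23.0% of marrow cells, so the order of these 2 cultures depended on depth, and their intervals at 3000 UMIs overlapped (8.98 to 10.5 and 10.0 to 11.3).

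Stromal-like cells had a mean of 1.26 members with a UMI at 3000 UMIs in adipose tissue, 0.856 in marrow and 1.71 in blood. No member was seen in 14.1% of adipose, 37.4% of marrow and 3.82% of blood stromal-like cells, and 0 cells had all 6. The leading member of a cell was read in stromal-like cells with at least 10 member UMIs, which were 3371 cells of adipose tissue, 705 of marrow and 2968 of blood. IGFBP6 led in 89.6% of those cells in adipose tissue, 49.9% in marrow and 94.6% in blood. IGFBP3 led in 2.67% of such adipose cells, 24.0% of marrow cells and 0.0674% of blood cells. IGFBP4 led in 4.15% in adipose tissue, 10.8% in marrow and 2.70% in blood, and IGFBP5 in 1.25%, 6.67% and 1.58%. The marrow cells read were only 8.49% of the stromal-like cells there, those richest in member UMIs.

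By both measures used here, IGFBP3 in adipose tissue and marrow, and IGFBP5 in all 3 cultures, varied more between cells than IGFBP4 or IGFBP6. IGFBP3 in blood was too low to be ranked in this way. In adipose stromal-like cells, the 605 cells with the largest part of their UMIs from a member held 72.1% of the IGFBP3 UMIs and 81.4% of the IGFBP5 UMIs, against 36.6% of the IGFBP4 UMIs and 20.7% of the IGFBP6 UMIs. In marrow, the 830 such cells held 71.0% of IGFBP3, 86.6% of IGFBP5, 38.3% of IGFBP4 and 26.9% of IGFBP6. In blood, the 304 such cells held 54.7% of IGFBP5, 25.2% of IGFBP4 and 17.3% of IGFBP6. A member at a low level is seen in few cells by sampling alone, so these shares also move with the level. IGFBP5 in blood (127 CPM) and IGFBP4 in adipose tissue (140 CPM) had nearly the same level, with shares of 54.7% and 36.6%. These shares are from cells that were not thinned, and kept cells had a median of 24884 UMIs in blood and 14391 in adipose tissue. The part of level and depth in the shares was not tested. The ratio of variance to mean at 3000 UMIs, which is 1 for counts that vary only by sampling, was 2.25 in adipose tissue, 2.06 in marrow and 1.24 in blood for IGFBP3. For IGFBP5 it was 1.83 in adipose tissue, 1.94 in marrow and 2.69 in blood, against 1.43, 1.196 and 1.44 for IGFBP4 and 1.43, 1.22 and 1.66 for IGFBP6. In blood the ratio of IGFBP3 was below those of IGFBP4 and IGFBP6, but its mean was 0.0132 UMIs per cell against 0.887 and 3.45. Where cells differ, this ratio rises with the level, so it does not show that IGFBP3 varied less there. The highest single cells had 58 IGFBP3 UMIs in adipose tissue and 96 IGFBP5 UMIs in blood.

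Co-detection asked whether members appeared in the same stromal-like cells more or less often than the product of their single shares at 3000 UMIs. Pairs with a product of at least 10 cells numbered 9 in adipose tissue, 13 in marrow and 11 in blood. The observed share lay above the product, beyond its counting interval, for 2, 3 and 1 of them. It lay below for 0, 1 and 0. The 3 in marrow included IGFBP2 with IGFBP3, whose ratio was also above 1 in 5 of 5 clusters with a product of at least 2 cells. For IGFBP4 and IGFBP6 the observed share was close to the product, with ratios of 1.03, 1.03 and 1.02 in adipose tissue, marrow and blood. The ratio cannot exceed 1 divided by the larger single share. IGFBP6 was found in 77.5% of adipose stromal-like cells and in a larger share of blood ones. The ratio thus had little room above 1 in these cultures, and it does not show that the 2 members were unrelated. IGFBP3 and IGFBP4 were found together in 237 adipose cells, or 3.92% (3.44 to 4.44), against a product of 2.94%, a ratio of 1.33. In marrow they were together in 293 cells, or 3.53% (3.14 to 3.95), against 2.36%, a ratio of 1.49. This was also seen inside clusters, where the ratio was above 1 in 4 of 4 adipose clusters (1.18 to 1.42) and in 5 of 6 marrow clusters (0.947 to 1.67). In blood the ratio was 1.03, from 19 cells.

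For IGFBP3 and IGFBP5 the ratio lay on opposite sides of 1 in adipose tissue and marrow, a difference that was not tested. In adipose tissue they were together in 67 cells, or 1.11% (0.859 to 1.40), against a product of 0.718%, a ratio of 1.54. In marrow they were together in 39 cells, or 0.470% (0.334 to 0.642), against a product of 0.642% that lay at the upper end of that interval, a ratio of 0.731. Inside clusters the ratio was above 1 in 4 of 4 adipose clusters and below 1 in 6 of 6 marrow clusters, with 13 to 21 cells in each adipose cluster and 2 to 11 in each marrow cluster. At 6000 UMIs the ratios were 1.40 in adipose tissue (148 cells) and 0.862 in marrow (111 cells), and in low-cycling cells 1.08 and 1.17, from 1 cell in each culture. IGFBP2 and IGFBP5, which lie next to each other on chromosome 2 in the RefSeq annotation of ARS-UCD2.0, were together in 7 adipose cells (ratio 1.87), 27 marrow cells (ratio 1.96) and 22 blood cells (ratio 1.82). Inside marrow clusters with a product of at least 2 cells, the ratio was above 1 in 2 and below 1 in 1 (0.439 to 2.49). In blood it was above 1 in both such clusters (1.93 to 2.65). Any link to gene position was not tested. IGFBP5 and IGFBP7 were together in 21 marrow cells, 2.59 times the product, but inside cluster 0, where both were highest, the ratio was 0.764 (10 cells). The counts behind IGFBP2 and IGFBP7 pairs are small. Correlations over cells of log2 values for pairs with at least 10 expected cells lay between -0.063 and 0.154, with cells of 1 library sharing their culture.

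**Figure D5:**
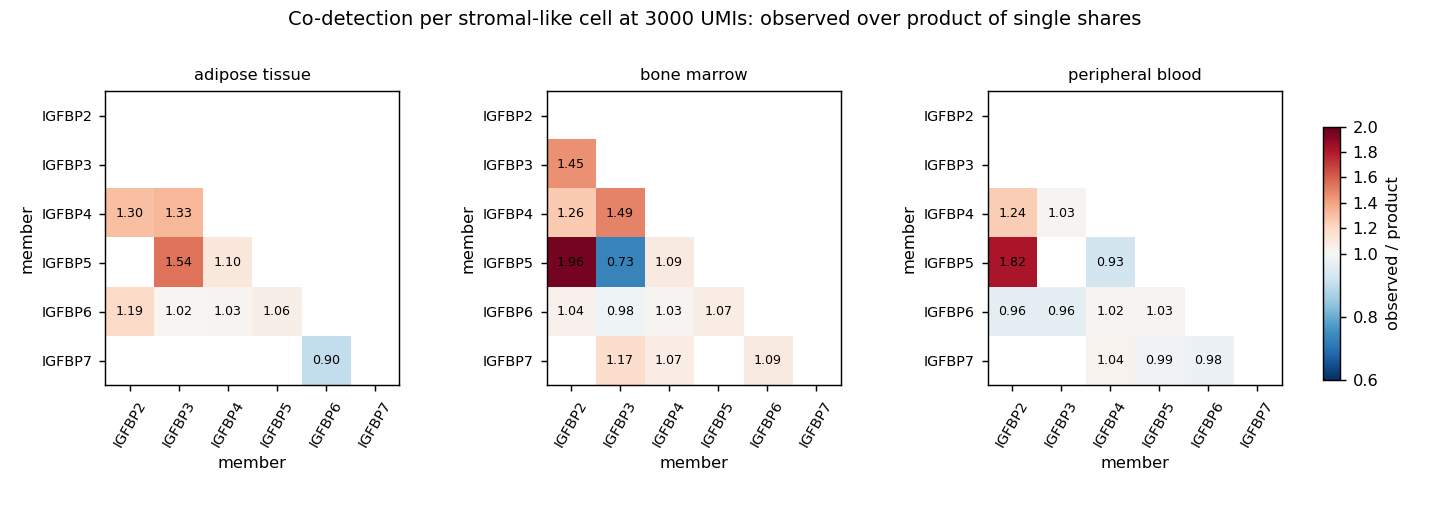
Observed share of stromal-like cells with both members over the product of the single shares (colour and printed value, 1 is white), after thinning to 3000 UMIs, for pairs with a product of at least 10 cells in a culture. IGFBP3 with IGFBP4 is 1.33 in adipose tissue and 1.49 in marrow, and IGFBP3 with IGFBP5 is 1.54 in adipose tissue and 0.73 in marrow.

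The genes most like each member over 19 clusters of at least 50 cells, by Pearson correlation of log2(CPM + 10) centred within a library, are given as a description. Clusters of a library share its cells' culture and depth, and the FABP4 and LYZ cluster is low in all members. SERPINE2 was closest to IGFBP4 (r = 0.97), CD248 to IGFBP7 (0.87), UNC13D and IL36A to IGFBP5 (0.84 and 0.83), CNN1 to IGFBP2 (0.83), PLK2 to IGFBP3 (0.92) and ANXA8L1 to IGFBP6 (0.98). Over the 16 stromal-like clusters alone, an alternative chosen after seeing the data, SERPINE2 (0.93), CD248 (0.90), IL36A (0.90) and CNN1 (0.89) were still among the 3 closest to their members. None of the 3 genes closest to IGFBP3 or to IGFBP6 was. ALDH1A1, a leading gene of blood cluster 4, was then closest to IGFBP5 (0.92). Between members over these 16 clusters, r was lowest for IGFBP3 and IGFBP5 (-0.52) and highest for IGFBP2 and IGFBP7 (0.56), of 15 pairs. Over the 19 clusters these pairs had r = 0.11 and 0.56, so the sign for IGFBP3 and IGFBP5 depended on the clusters used.

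The ligands of the binding proteins were almost unseen. IGF1 had 0 UMIs in adipose tissue, 16 in marrow and 20 in blood, of which stromal-like cells held 1 in marrow and 1 in blood. IGF2 had 6, 2 and 5 UMIs in adipose tissue, marrow and blood, all in stromal-like cells. A count of 0 over all kept adipose cells allows up to 0.0316 CPM. IGF1R, the signalling receptor, had 7.08 CPM in adipose tissue, 5.47 CPM in marrow and 10.1 CPM in blood, and the clearance receptor IGF2R had 68.7, 50.5 and 76.0 CPM. INSR stayed under 1 CPM in each library. IGFBP1, the neighbour of IGFBP3 in the ARS-UCD2.0 annotation, had 21 UMIs in marrow and 0 in the other libraries.

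Enzymes known, mostly from human and mouse work, to cut the binding proteins were unequal in level. HTRA1, a secreted serine protease with IGFBP5 among its known substrates, had 201 CPM in adipose tissue, 276 CPM in marrow and 230 CPM in blood. PAPPA, the metalloproteinase that cuts IGFBP4, had 0.717, 0.294 and 0.471 CPM in adipose tissue, marrow and blood, and its relative PAPPA2 had 1 UMI in all. STC2, a secreted inhibitor of PAPPA, had 1.38 CPM in adipose tissue, 4.07 CPM in marrow and 11.1 CPM in blood. ADAM12, which cuts IGFBP3 and IGFBP5, had 22.0, 38.7 and 44.3 CPM. CTSD, a lysosomal protease able to cut several binding proteins, had 71.3 CPM in adipose tissue, 320 CPM in marrow and 126 CPM in blood. Of 23 genes in this list of ligands, receptors, adaptors and proteases, 3 could be read in each pair. CTSD was the 1 counted as lower in adipose tissue than in marrow (4.35 percent of all genes) and the 1 counted as higher in marrow than in blood (3.86 percent of all genes). Between adipose tissue and blood 0 were counted, against 5.03 percent of all genes in either direction. Macrophage markers were also highest in the marrow library, and any link between them and the CTSD level was not tested. In stromal-like cells alone CTSD had 71.1 CPM in adipose tissue, 112 CPM in marrow and 90.5 CPM in blood, and all pairs were within the 2-fold limit. Of all genes in those cells, 6.08 percent were counted between adipose tissue and marrow. The shares were 5.04 percent between adipose tissue and blood and 7.35 percent between marrow and blood. Over all kept cells, the median log2 ratio of the list's 3 read genes was -0.45 for adipose tissue over marrow. It was -0.19 for adipose tissue over blood and 0.26 for marrow over blood. All genes had 0.10, 0.13 and 0.02 in these pairs.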

How the data were processed

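The deposited values are counts of UMIs per gene and barcode, made by the authors with Cell Ranger. The version is 6.1.1 in the submitters' processing notes, but the file headers give 4, and this was not settled. The same notes name the genome build ARS-UCD1.2. The matrices were unfiltered (1472552 to 2479370 barcodes). To call cells, the 99th percentile of UMIs over the 3000 deepest barcodes was divided by 10, which gave thresholds of 4438.5, 4414 and 7489 UMIs for adipose tissue, bone marrow and blood. 0 cells failed limits of 500 genes or 20% mitochondrial UMIs. No doublet caller was run. Kept cells held 94838893, 98772664 and 89171113 UMIs.

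Each library was clustered alone with scanpy 1.11.5 (10000 UMIs per cell, log scale, 2000 variable genes without the 6 members, 30 principal components, 15 neighbours, Leiden resolution 0.5, seed 1). Non-stromal names required 3 markers of that class within the 50 top genes by fold. With a stromal-marker share of 0.5 or more of the median for the library, such a cluster was mixed, and with more markers of another class in the top 10 it stayed unnamed. Other clusters with 3 stromal markers at 50 CPM were stromal-like. Names were rebuilt from markers and may differ from the study's own.

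Ratios of CPM carry conditional binomial intervals, levels Poisson intervals and shares Clopper-Pearson intervals. A count of 0 allows up to 3 counts. Thinning to 3000 UMIs drew UMIs without replacement. The ratio calls were tested on simulated counts with known folds and sampling error only. That test had no spread between cells or cultures, so it checks the computation and not the differences between tissues. Named genes are the 6 members, the 23 genes of the IGF list, the 3 genes most like each member (genes with a symbol and at least 50 CPM in a library) and the 5 leading genes of each cluster; some are summarised. The members and lists were chosen with earlier results of these data known. TMM factors came from edgeR 4.0.16. No genome sequence was used, so no coordinates or sequences are given.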

Additional observations from a re-analysis of the deposited data

How the results depend on the processing

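No paired analysis was possible because each tissue gave 1 library. IGFBP6 stayed the leading member of every culture under every alternative tried. Counts of called members changed under 3 kinds of alternative. In low-cycling cells alone (67, 390 and 133 cells of adipose tissue, marrow and blood), 2 members (IGFBP5 and IGFBP6) were higher in adipose tissue than in marrow (5.58 percent of all genes), 0 were lower in adipose tissue than in blood (4.31 percent), and 0 were higher in marrow than in blood (8.16 percent), where IGFBP3 was at 48.8 CPM in marrow. Of the 390 marrow cells, 203 were stromal-like. In low-cycling stromal-like cells, added after seeing the data, the first 2 counts were again 2 (4.71 percent) and 0 (4.12 percent), but IGFBP3 was 1 member higher in marrow than in blood (4.32 percent), at 73.9 CPM against 3.91 CPM. With no filter on low values, 2 members (IGFBP2 and IGFBP7) were lower in adipose tissue than in marrow (16 percent of all genes) and 4 lower than in blood (14.6 percent). A fold of 1.5 gave 2 higher in adipose tissue than in marrow (6.05 percent), and a fold of 3 gave 1 lower in adipose tissue than in blood (1.58 percent). TMM factors, cell thresholds, stromal-like cells only, removal of the 5% deepest cells and cell-weighted means gave the same counts, as did totals without mitochondrial and ribosomal protein genes. A minimum of 10 CPM and a fold of 1.5 each gave 3 lower in adipose tissue than in blood (4.67 and 8.45 percent). The IGFBP6 share of member UMIs was 63.1% in adipose tissue, 50.6% in marrow and 67.7% in blood for low-cycling cells, 63.2%, 50.2% and 68.0% for low-cycling stromal-like cells, and 72.7%, 43.5% and 71.8% as a mean over cells with at least 10 member UMIs. It was 50.1% in marrow at double the UMI threshold. The cause of these shifts was not tested.

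Of 180 alternative log2 ratios, 113 moved within counting error and 67 beyond it. Low-cycling cells turned the sign of uncalled ratios: 0.64 for IGFBP2, 0.33 for IGFBP3 and 0.64 for IGFBP7 in adipose tissue over marrow, and -1.03 for IGFBP2 in marrow over blood. In low-cycling stromal-like cells these were 0.056, -0.24, -0.15 and -0.39, so the signs of IGFBP3 and IGFBP7 were not turned. Detection moved in 36 of 36 cases with depth. Co-detection moved in 26 of 130 cases. IGFBP3 with IGFBP5 in marrow was 0.862 of the product at 6000 UMIs, and IGFBP3 with IGFBP4 was 1.2 in adipose tissue and 1.31 in marrow. The ratio of the highest to the lowest stromal-like cluster moved by over 1.5 times in 14 of 35 cases, 11 of them at resolution 1.0, where 1 adipose cluster had 0 IGFBP7 UMIs and gave no value. Counts were low for IGFBP2 and IGFBP7 (234 to 952 UMIs per library) and for IGFBP3 in blood (427 UMIs).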
